A study of Homo sapiens with 12 samples.

Results

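The 48 genes described here copy the genome or prepare a cell for doing so: origin recognition and licensing factors, the subunits of the replicative helicase, DNA polymerases, the sliding clamp and its loader, enzymes of nucleotide supply, S phase regulators and factors that act on chromatin at the fork. They were chosen by name from the table of the series, in which all 48 of 58735 genes were found once each, and all 48 were expressed enough to be tested. The RNA came from HaCaT, an immortalised line of human skin keratinocytes, and the 12 libraries form 4 groups of 3. Control-siRNA cells were transfected with a control siRNA and PHGDH-siRNA cells with an siRNA against PHGDH, the enzyme that opens serine synthesis. Control-siRNA+Mix and PHGDH-siRNA+Mix cells received the same siRNAs and a stimulation called mix for 24 h. All groups are therefore transfected cells of 1 line. The sources used here name neither the contents of the mix nor the origin of the 3 libraries as separate cultures, so the p-values measure a spread that may be technical.

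DNA replication is prepared in G1, when the origin recognition complex, CDC6 and CDT1 load the MCM2 to MCM7 ring onto origins. In S phase, CDC45 and the GINS complex join the ring to form the active helicase, primase and polymerase alpha start each strand, and polymerases delta and epsilon extend it on the PCNA clamp that replication factor C loads. Most of these genes are known targets of E2F transcription factors, which RB proteins hold back until cyclin-dependent kinases release them. In the epidermis, basal keratinocytes divide, and they leave the cell cycle as they differentiate.

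Because E2F binds many of these genes, its core motifs were searched for in their promoters. RefSeq promoter windows (GRCh38.p14, from 250 bases before to 50 after a gene's start) were found for 42 of the 48 genes, 53 windows in all. Stretches of 160 bases that end just before the start are shown for 6 of them, 5′ to 3′ on the strand of the gene, with the letters of an E2F core (TTCCCGC or TTGGCGC, on either strand) in capitals. MCM6, a subunit of the ring (minus strand, chr2:135876444-135876603), and POLE, the catalytic subunit of polymerase epsilon (minus strand, chr12:132687343-132687502), are shown because each held 2 cores. CHAF1A, which lays histones onto new DNA (plus strand, chr19:4402480-4402639), held 1 of each kind. E2F1 (minus strand, chr20:33686386-33686545) and E2F2 (minus strand, chr1:23531234-23531393) encode factors that bind such cores. SSRP1, a histone chaperone (minus strand, chr11:57335893-57336052), is shown as a promoter without a core.
MCM6: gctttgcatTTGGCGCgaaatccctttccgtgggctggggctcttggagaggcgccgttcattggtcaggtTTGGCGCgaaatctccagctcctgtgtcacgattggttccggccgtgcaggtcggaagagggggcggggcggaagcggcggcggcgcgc
POLE: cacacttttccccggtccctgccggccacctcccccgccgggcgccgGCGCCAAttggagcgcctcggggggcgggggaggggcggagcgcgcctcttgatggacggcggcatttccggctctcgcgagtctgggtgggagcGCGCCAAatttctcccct
CHAF1A: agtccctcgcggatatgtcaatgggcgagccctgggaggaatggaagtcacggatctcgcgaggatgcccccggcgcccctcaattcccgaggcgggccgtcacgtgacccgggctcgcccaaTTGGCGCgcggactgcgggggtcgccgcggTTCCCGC
E2F1: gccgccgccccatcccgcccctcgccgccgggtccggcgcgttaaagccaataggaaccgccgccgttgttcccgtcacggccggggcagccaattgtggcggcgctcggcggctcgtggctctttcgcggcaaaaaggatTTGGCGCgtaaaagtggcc
E2F2: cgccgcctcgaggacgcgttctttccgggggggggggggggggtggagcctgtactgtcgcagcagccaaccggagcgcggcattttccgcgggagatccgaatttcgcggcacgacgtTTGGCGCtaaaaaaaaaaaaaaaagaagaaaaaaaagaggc
SSRP1: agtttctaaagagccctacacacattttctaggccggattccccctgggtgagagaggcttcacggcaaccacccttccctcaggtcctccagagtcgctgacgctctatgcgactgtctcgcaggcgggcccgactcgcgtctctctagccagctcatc
An E2F core of either kind stood in 56.6% of the 53 windows and in 9.23% of all 35116 windows of the same length. Counted by gene, 29 of 42 replication genes had one, against 2993 of all 27305 genes. TTCCCGC was found in 37.7% of their windows and 6.55% of all, and TTGGCGC in 24.5% and 3.04%. Of the 40 cores, 25 lay within 50 bases of the start and 36 upstream of it. CCAAT, the NF-Y box, stood in 56.6% of the windows against 34.6% of all, and GGGCGG, the SP1 box, in 71.7% against 45.0%. Neither was particular to these genes. Windows of mitosis and G2/M genes held CCAAT in 77.1% and GGGCGG in 82.9%. The shares were 50.9% and 79.2% for other replication and S phase genes, and 29.7% and 70.3% for RB, E2F and G1/S regulators. A TTGGCGC core followed on its other strand by T also spells CCAAT, as in the first core of the POLE stretch, so these motifs can overlap. TTTGAA, the cell cycle homology region found in promoters of mitotic genes, stood in 1.89% of the windows, in 15.2% of all and in 62.9% of the 35 windows of mitosis and G2/M genes. An E2F core stood in 17.1% of the mitotic windows, 37.7% of those of other replication and S phase genes and 16.2% of those of the regulators. A match is a description of letters and does not show that a factor was bound.

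**Figure D1:**
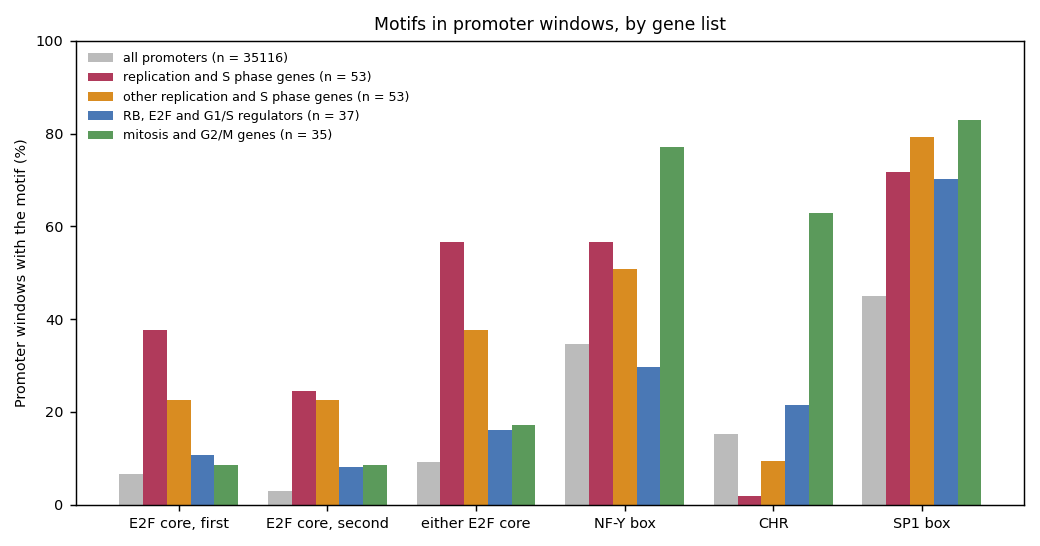
Share of promoter windows (%, y axis) that hold each motif on either strand, for all windows in grey, the replication and S phase genes, other replication genes, RB, E2F and G1/S regulators, and mitosis and G2/M genes; the first E2F core is TTCCCGC, the second TTGGCGC, CHR the cell cycle homology region, and n counts windows. The replication and S phase genes held an E2F core in 56.6% of windows and the CHR in 1.89%, and the mitotic genes the CHR in 62.9%.

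Levels are FPKM, reads scaled to gene length and library size, so they can be set side by side between genes. Each change is a log2 ratio of FPKM + 1, estimated with limma and fitted to all 12 libraries over 14577 genes, with their standard error (SE), and an adjusted p under 0.05 counts as past the threshold. The libraries held 16403845 to 20901128 reads recovered from the FPKM values, and the least-read gene of the set, CCNE2, had 21 to 132 reads per library. PHGDH was at 36.5, 56.2 and 45.8 FPKM in Control-siRNA and 23.7, 20.1 and 16.9 FPKM in PHGDH-siRNA, and at 31.9, 31.2 and 26.6 FPKM in Control-siRNA+Mix and 19.1, 13.3 and 11.5 FPKM in PHGDH-siRNA+Mix. The groups did not overlap, but the difference passed limma only when averaged over the mix conditions (-1.08, adjusted p = 0.0197), and not alone (adjusted p = 0.128 without mix and 0.2 with it). All 8 keratinocyte markers were above 1 FPKM, and their sum was 1337 to 1803 FPKM in Control-siRNA, 2516 to 2629 in Control-siRNA+Mix, 1359 to 5136 in PHGDH-siRNA and 2353 to 5131 in PHGDH-siRNA+Mix. Summed markers of fibroblasts (0.565 to 2.01 FPKM), melanocytes (0.754 to 1.21), leukocytes (0.259 to 3.14) and endothelial cells (0.154 to 0.975) were low, with TYR, PTPRC and KDR at 0 in every library. Above 1 FPKM in some library were COL1A1 (highest 1.44), COL3A1 (1.12) and CD14 (2.83). Replicate 2 of PHGDH-siRNA+Mix stood apart, with 41 of the 48 replication genes higher than the mean of replicates 1 and 3 (median difference 0.31, log2). In PHGDH-siRNA, replicate 2 was higher for 21 of 48 (median -0.06). Single genes there deviated in either direction, from -0.77 for UHRF1 to 0.88 for POLE2. In bulk RNA, fewer cells in S phase and less of each transcript per cell cannot be told apart.

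Together the 48 genes took 0.619% to 0.634% of the reads in Control-siRNA and 0.367% to 0.376% in Control-siRNA+Mix. Under PHGDH siRNA they took 0.567% to 0.598% without mix and 0.250% to 0.351% with it. Their summed level was 1637 ± 93.6 FPKM (SD, n = 3) in Control-siRNA, 1027 ± 25.9 in Control-siRNA+Mix, 1536 ± 58.6 in PHGDH-siRNA and 833.2 ± 122 in PHGDH-siRNA+Mix. The highest of the PHGDH-siRNA+Mix libraries was replicate 2 at 972.4 FPKM, against 742.8 and 784.5 FPKM. The sums with mix lay below all sums without mix in both siRNA arms.

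**Figure D2:**
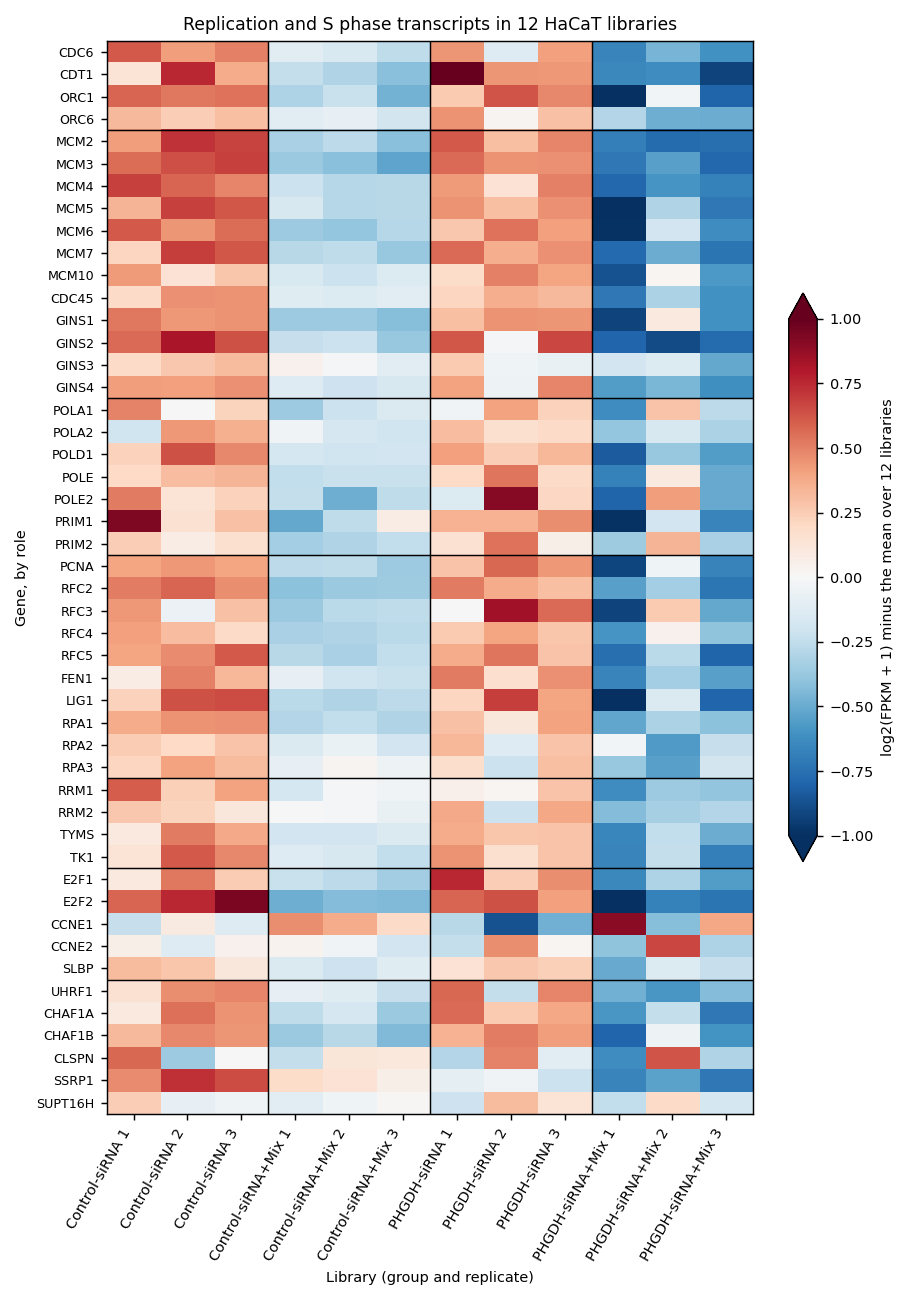
Level of each of the 48 genes (rows, grouped by role) in each of the 12 libraries (columns), as log2(FPKM + 1) minus the gene's mean over the 12 libraries; red is above and blue below that mean, with the colour scale ending at 1.00 in either direction. The libraries without mix are mostly red and those with mix mostly blue, CCNE1 runs the other way, and replicate 2 of PHGDH-siRNA+Mix is paler than the other libraries of its group.

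The comparison of mix with no mix under control siRNA asked how 24 h of the mix changed these transcripts in cells with the control siRNA. Of the 48 genes, 28 fell, none rose and 20 did not pass, where 3.92% of all genes tested fell and 5.62% rose. Lower values were found for 47 of 48, with a median log2 change of -0.59 against 0.004 over all genes, and CCNE1 was the exception. The groups did not overlap, with mix lower, for 43 of 48 genes, against 18.7% of all genes. Under PHGDH siRNA, the same comparison gave 35 genes that fell and none that rose, against 3.64% and 5.22% of all genes. The median was -0.83 against 0.000. There 47 of 48 were lower, again all but CCNE1, and 38 did not overlap, against 10.3% of all genes. All 28 genes that fell under control siRNA also fell under PHGDH siRNA, which is 80% of the 35. The 7 called under PHGDH siRNA alone were MCM10, ORC6, POLE, PRIM1, FEN1, SLBP and UHRF1, and all 7 were lower under control siRNA too. A model of the 2 control siRNA groups alone called 40 of the 48 there, 39 of them lower. The 12 it added were CCNE1, which was higher, RFC3, POLE2, PRIM2, RPA2, RPA3 and, of the 7, all but PRIM1. Without the filter on low values 14 of the 48 were called under control siRNA and 27 under PHGDH siRNA. The count under control siRNA also rested on the libraries: leaving out Control-siRNA replicate 1 left 25 of them called, replicate 2 left 12 and replicate 3 left 10, and leaving out Control-siRNA+Mix replicates 1, 2 and 3 left 10, 11 and 10. Under PHGDH siRNA, 24 to 38 were called with a library left out, 38 of them without PHGDH-siRNA+Mix replicate 2, where the median was -0.98. These 38 included CCNE1, which was higher, and no longer UHRF1 (-0.73, limma adjusted p = 0.0631). A model of the 2 PHGDH siRNA groups alone called 9, and one with the replicate number as a block in these groups called 43 of the 48 and 3284 of all genes, against 1291 without the block. CCNE1 was among the 43, and was higher.

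**Figure D3:**
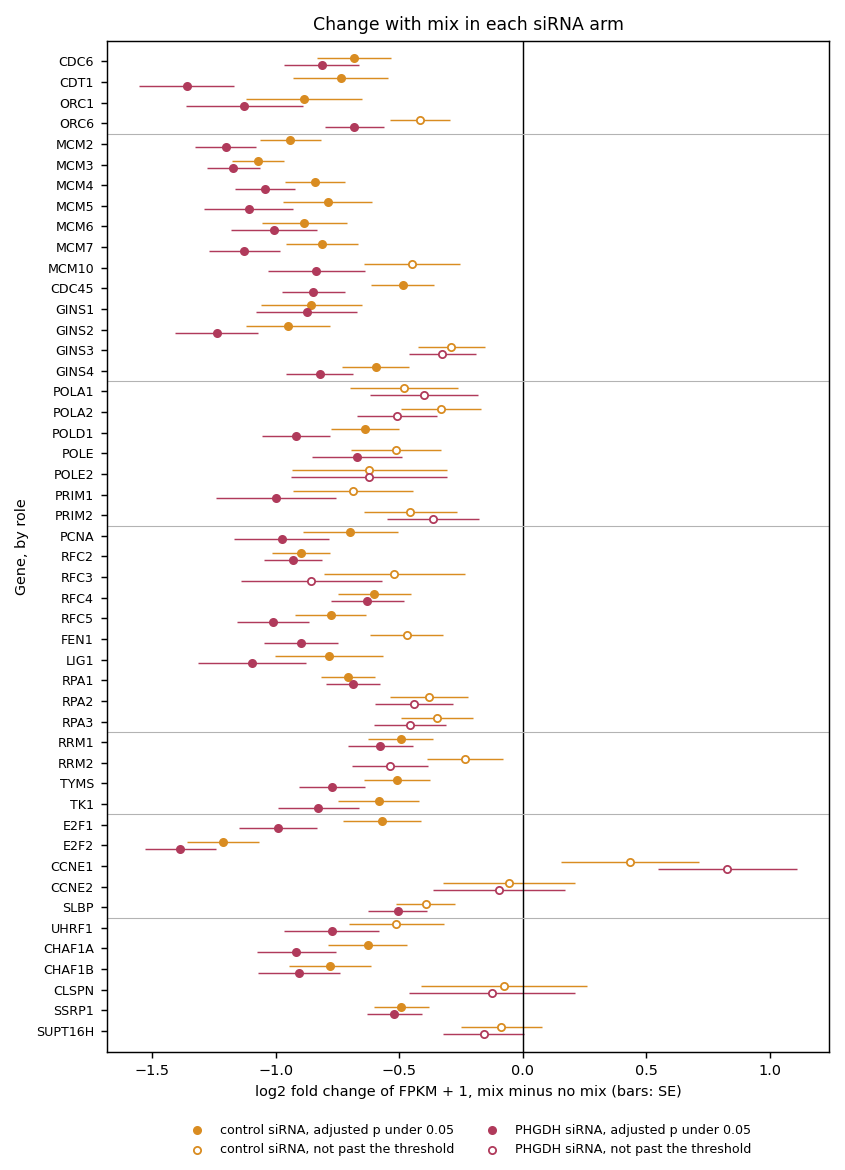
Log2 fold change of FPKM + 1 with mix (x axis, bars are SE) for each gene (y axis, by role), under control siRNA in orange and PHGDH siRNA in red; filled points have an adjusted p under 0.05. The points lie left of 0 in both arms for all genes but CCNE1, from -1.39 for E2F2 to 0.83 for CCNE1 under PHGDH siRNA.

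Licensing factors fell with mix in both arms. Here and in what follows, the first of 2 changes is that under control siRNA and the second that under PHGDH siRNA. Of the 4, CDC6, CDT1 and ORC1 passed under control siRNA (median of the 4, -0.71) and all 4 passed under PHGDH siRNA (median -0.97). CDT1, which brings the MCM ring to origins, was at 31.9, 49.3 and 37.6 FPKM in Control-siRNA, 24.4, 23.3 and 21.4 in Control-siRNA+Mix, 59.2, 39.6 and 39.4 in PHGDH-siRNA and 18.1, 18.4 and 14.7 in PHGDH-siRNA+Mix. All 6 libraries with mix lay below all 6 without it, and those of PHGDH-siRNA+Mix were the lowest. On the log2 scale CDT1 fell by 0.74 (SE 0.192, adjusted p = 0.0355) under control siRNA and by 1.36 (SE 0.192, adjusted p = 0.00145) under PHGDH siRNA. CDC6, an ATPase that works with CDT1, measured 23.5, 20.5 and 21.7 FPKM in Control-siRNA against 13.9, 13.5 and 12.5 with mix, and 20.8, 13.7 and 20.3 in PHGDH-siRNA against 9.18, 10.7 and 9.55 with mix. Mix was lower without overlap in each arm, although PHGDH-siRNA replicate 2 (13.7 FPKM) was as low as the Control-siRNA+Mix libraries. CDC6 fell by 0.68 (SE 0.150, adjusted p = 0.0157) and by 0.81 (SE 0.150, adjusted p = 0.00674) in the control and PHGDH siRNA arms. ORC1, the largest subunit of the origin recognition complex, was at 15.9, 15.3 and 15.5 FPKM in Control-siRNA and 8.11, 8.69 and 7.15 in Control-siRNA+Mix. Under PHGDH siRNA ORC1 was at 12.5, 16.5 and 14.8 FPKM without mix and 3.98, 10.1 and 5.48 with it, replicate 2 being the highest of its group. ORC1 fell by 0.89 (SE 0.236, adjusted p = 0.0392) under control siRNA and by 1.13 (SE 0.236, adjusted p = 0.0139) under PHGDH siRNA, and the first of these calls was lost with any 1 of the 6 libraries left out (highest adjusted p = 0.145). ORC6, a small subunit of the same complex, ran at 11.3, 10.6 and 11.1 FPKM in Control-siRNA and 8.09, 8.24 and 7.62 in Control-siRNA+Mix. With PHGDH siRNA it ran at 12.3, 8.94 and 11.01 FPKM without mix and 6.997, 5.96 and 5.93 with it. The groups did not overlap in either arm, and ORC6 differed by -0.42 (SE 0.121, adjusted p = 0.0557) and fell by 0.68 (SE 0.121, adjusted p = 0.00547). Under control siRNA it was called in 4 alternatives: the model of those groups alone (adjusted p = 0.0111), voom (0.028), median-of-ratios scaling (0.0483) and a minimum group mean of 1 FPKM (0.0493).

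The replicative helicase was the role with the most genes past the threshold, 10 of 12 under control siRNA (median -0.83) and 11 of 12 under PHGDH siRNA (median -1.03). All 6 subunits of the MCM2 to MCM7 ring fell in both arms. MCM2 (ENSG00000073111, chromosome 3, 127598223 to 127622436, plus strand, hg38 as all gene positions here) was at 58.8, 72.99 and 70.4 FPKM in Control-siRNA and 34.8, 36.4 and 32.4 in Control-siRNA+Mix. Under PHGDH siRNA it was at 67.6, 54.1 and 61.8 FPKM without mix and 26.9, 25.2 and 25.6 with it. No library with mix came near those without, and MCM2 fell by 0.94 (SE 0.123, adjusted p = 0.000688) under control siRNA and by 1.20 (SE 0.123, adjusted p = 0.000161) under PHGDH siRNA. MCM3 had the lowest adjusted p of the 48 genes in both arms, with 55.8, 59.3 and 60.8 FPKM in Control-siRNA, 28.7, 27.8 and 25.7 with mix, 55.9, 51.5 and 51.96 in PHGDH-siRNA and 22.4, 25.4 and 21.3 with mix. Libraries of one group lay close together and those with mix held 46.7% of the Control-siRNA mean and 43.4% of the PHGDH-siRNA mean. MCM3 fell by 1.07 (SE 0.106, adjusted p = 9.11e-05) and by 1.17 (SE 0.106, adjusted p = 7.35e-05). MCM4 measured 82.99, 77.03 and 72.1 FPKM in Control-siRNA, 44.05, 41.9 and 42.1 with mix, 69.2, 56.8 and 73.05 in PHGDH-siRNA and 29.3, 33.7 and 31.7 with mix. It was lowest in the PHGDH-siRNA+Mix libraries, all 3 of which lay below the Control-siRNA+Mix libraries. MCM4 fell by 0.84 (SE 0.122, adjusted p = 0.00129) under control siRNA and by 1.04 (SE 0.122, adjusted p = 0.000371) under PHGDH siRNA.

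MCM5 stood at 22.4, 28.7 and 27.4 FPKM in Control-siRNA, 15.5, 14.2 and 14.3 with mix, 24.2, 21.7 and 24.3 in PHGDH-siRNA and 7.54, 13.97 and 10.3 with mix. Its PHGDH-siRNA+Mix libraries spread widely, with replicate 2 close to the Control-siRNA+Mix libraries. MCM5 fell by 0.79 (SE 0.180, adjusted p = 0.0195) and by 1.11 (SE 0.180, adjusted p = 0.00338) in the 2 arms. MCM6, whose promoter held 2 E2F cores, was at 30.6, 27.1 and 29.4 FPKM in Control-siRNA, 15.1, 14.8 and 15.96 with mix, 23.97, 29.1 and 26.5 in PHGDH-siRNA and 9.43, 17.1 and 12.4 with mix. Replicate 2 of PHGDH-siRNA+Mix was above the Control-siRNA+Mix libraries and the other replicates below them. MCM6 fell by 0.88 (SE 0.173, adjusted p = 0.00889) and by 1.01 (SE 0.173, adjusted p = 0.00455). MCM7, the most abundant subunit of the ring by FPKM, measured 110.0, 153 and 146 FPKM in Control-siRNA, 77.9, 78.8 and 72.4 with mix, 140.1, 122 and 129.7 in PHGDH-siRNA and 54.7, 66.8 and 56.5 with mix. The highest library with mix (78.8 FPKM) was still below the lowest without it (110.0 FPKM). MCM7 fell by 0.81 (SE 0.145, adjusted p = 0.00511) and by 1.13 (SE 0.145, adjusted p = 0.000733).

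CDC45 and the GINS complex turn the loaded ring into a working helicase. CDC45 was at 23.4, 28.3 and 28.2 FPKM in Control-siRNA, 18.7, 18.4 and 18.8 with mix, 23.8, 26.5 and 25.8 in PHGDH-siRNA and 11.99, 16.2 and 13.1 with mix. Its Control-siRNA+Mix libraries were within 1 FPKM of each other and all above the PHGDH-siRNA+Mix libraries. CDC45 fell by 0.49 (SE 0.126, adjusted p = 0.035) under control siRNA and by 0.85 (SE 0.126, adjusted p = 0.00195) under PHGDH siRNA. GINS2 ran at 26.9, 32.2 and 28.4 FPKM in Control-siRNA, 15.1, 15.2 and 13.5 with mix, 28.1, 17.6 and 28.9 in PHGDH-siRNA and 9.90, 9.15 and 10.1 with mix. PHGDH-siRNA replicate 2 was the lowest library without mix, and the libraries with mix were lower again. GINS2 fell by 0.95 (SE 0.169, adjusted p = 0.00522) and by 1.24 (SE 0.169, adjusted p = 0.00116), the largest change of a helicase gene under PHGDH siRNA. GINS1 and GINS4 fell in both arms as well, by 0.86 and 0.60 under control siRNA and by 0.88 and 0.82 under PHGDH siRNA. GINS3 was the only helicase gene past the threshold in neither arm, with -0.29 (SE 0.135, adjusted p = 0.24) under control siRNA and -0.33 (SE 0.135, adjusted p = 0.182) under PHGDH siRNA, the latter called with the replicate block (adjusted p = 0.0361). MCM10, which helps to start the helicase, measured 7.67, 6.13 and 6.85 FPKM in Control-siRNA, 4.82, 4.57 and 4.88 with mix, 6.33, 8.15 and 7.51 in PHGDH-siRNA and 2.54, 5.56 and 3.33 with mix. Mix was lower without overlap in each arm, replicate 2 of PHGDH-siRNA+Mix being the highest library with mix. MCM10 differed by -0.45 (SE 0.195, adjusted p = 0.204) under control siRNA and fell by 0.84 (SE 0.195, adjusted p = 0.0233) under PHGDH siRNA.

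Polymerase and primase genes had fewer calls, 1 of 7 under control siRNA (median -0.51) and 3 of 7 under PHGDH siRNA (median -0.62), although all 7 were lower in both arms. POLD1, the catalytic subunit of polymerase delta, was at 17.4, 23.4 and 20.9 FPKM in Control-siRNA, 12.9, 12.7 and 12.7 with mix, 19.9, 17.6 and 18.7 in PHGDH-siRNA and 7.82, 11.1 and 9.64 with mix. The libraries with mix formed 2 separate steps, PHGDH-siRNA+Mix below Control-siRNA+Mix, and both below all libraries without mix. POLD1 fell by 0.64 (SE 0.139, adjusted p = 0.0153) and by 0.92 (SE 0.139, adjusted p = 0.00213). PRIM1, the catalytic subunit of primase, was at 13.6, 7.48 and 8.32 FPKM in Control-siRNA and 4.33, 5.40 and 7.05 with mix. Under PHGDH siRNA PRIM1 was at 8.70, 8.68 and 9.51 FPKM without mix and 2.85, 5.68 and 3.82 with it. Control-siRNA replicate 1 was far above replicates 2 and 3, and the groups did not overlap in either arm. Under control siRNA PRIM1 differed by -0.69 (SE 0.243, adjusted p = 0.113), which did not pass, and under PHGDH siRNA it fell by 1.00 (SE 0.243, adjusted p = 0.0278). POLE differed by -0.51 (SE 0.182, adjusted p = 0.114) under control siRNA and fell by 0.67 (SE 0.182, adjusted p = 0.0441) under PHGDH siRNA. POLE2, a subunit of the same polymerase, measured 4.90, 3.52 and 3.81 FPKM in Control-siRNA, 2.49, 1.93 and 2.45 with mix, 2.74, 6.74 and 3.76 in PHGDH-siRNA and 1.36, 4.50 and 1.90 with mix. In both PHGDH siRNA groups replicate 2 was more than 1.5 times as high as the next library, and the groups overlapped. POLE2 differed by -0.62 (SE 0.315, adjusted p = 0.289) and -0.62 (SE 0.315, adjusted p = 0.285) and passed in neither arm, but passed under PHGDH siRNA when PHGDH-siRNA+Mix replicate 2 was left out (-0.98, adjusted p = 0.0422) and with the replicate block (adjusted p = 0.00579), and under control siRNA in the model of those groups alone (adjusted p = 0.0206). POLA2, PRIM2 and POLA1 passed in neither arm. POLA2 had the smallest change of the role under control siRNA (-0.33) and PRIM2 under PHGDH siRNA (-0.36), the latter called with the replicate block (adjusted p = 0.0144). PRIM2 was called under control siRNA in the model of those groups alone (adjusted p = 0.0126), and POLA1 differed by -0.48 and -0.40.

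The next role was the clamp, its loader, single-strand binding and Okazaki fragment joining. In it 6 of 10 genes fell under control siRNA (median -0.65) and 7 of 10 under PHGDH siRNA (median -0.88). PCNA (ENSG00000132646, chromosome 20, 5114953 to 5126626, minus strand), the sliding clamp, was the most abundant of the 48 transcripts by FPKM in Control-siRNA. It measured 207, 213 and 207 FPKM there and 131, 132 and 122 in Control-siRNA+Mix. In PHGDH-siRNA it measured 192, 235 and 213 FPKM and in PHGDH-siRNA+Mix 82.6, 152 and 98.5. All libraries with mix were below those without, but replicate 2 of PHGDH-siRNA+Mix lay above the Control-siRNA+Mix libraries and replicates 1 and 3 below them. PCNA fell by 0.70 (SE 0.193, adjusted p = 0.0456) under control siRNA and by 0.98 (SE 0.193, adjusted p = 0.0105) under PHGDH siRNA. RFC2, a subunit of the clamp loader, was at 37.2, 39.1 and 36.1 FPKM in Control-siRNA, 19.2, 19.7 and 20.03 with mix, 37.5, 33.6 and 31.99 in PHGDH-siRNA and 17.4, 20.3 and 15.2 with mix. Its libraries with mix overlapped between the arms, and RFC2 fell by 0.90 (SE 0.118, adjusted p = 0.000707) and by 0.93 (SE 0.118, adjusted p = 0.000671). RFC5, another subunit, measured 21.3, 22.5 and 24.8 FPKM in Control-siRNA, 12.97, 12.5 and 13.2 with mix, 20.9, 23.6 and 19.7 in PHGDH-siRNA and 9.01, 13.01 and 8.69 with mix. Mix was lower in every library, and RFC5 fell by 0.78 (SE 0.145, adjusted p = 0.00658) and by 1.01 (SE 0.145, adjusted p = 0.00159). RFC3 was the most variable of the loader subunits, with 17.6, 12.3 and 15.97 FPKM in Control-siRNA, 9.71, 10.5 and 10.6 with mix, 12.8, 23.7 and 19.5 in PHGDH-siRNA and 6.30, 15.6 and 8.73 with mix. Replicate 2 was the highest of each PHGDH siRNA group, and the groups overlapped where PHGDH-siRNA+Mix replicate 2 lay above PHGDH-siRNA replicate 1. RFC3 differed by -0.52 (SE 0.286, adjusted p = 0.333) and -0.86 (SE 0.286, adjusted p = 0.0965), and the latter passed when PHGDH-siRNA+Mix replicate 2 was left out (-1.18, adjusted p = 0.011) and with the replicate block (adjusted p = 0.0023), the former in the model of its groups alone (adjusted p = 0.0397).

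FEN1, the nuclease that trims Okazaki fragments, was at 63.3, 85.6 and 75.8 FPKM in Control-siRNA, 56.8, 52.1 and 51.4 with mix, 86.5, 67.8 and 82.9 in PHGDH-siRNA and 37.6, 47.3 and 40.9 with mix. Its PHGDH-siRNA+Mix libraries were the lowest of all, below those of Control-siRNA+Mix. FEN1 differed by -0.47 (SE 0.148, adjusted p = 0.0752) under control siRNA and fell by 0.90 (SE 0.148, adjusted p = 0.00351) under PHGDH siRNA. RFC4, a further loader subunit, passed the test in both arms (-0.60 and -0.63). LIG1, the ligase that joins the fragments, fell by 0.79 and by 1.10, the largest change of this role under PHGDH siRNA. RPA1, the large subunit of the single-strand binding protein, was at 49.6, 52.5 and 52.8 FPKM in Control-siRNA, 31.03, 31.99 and 30.7 with mix, 47.1, 41.4 and 50.9 in PHGDH-siRNA and 26.4, 30.5 and 28.4 with mix. Libraries with mix lay below all those without, and RPA1 fell by 0.71 (SE 0.109, adjusted p = 0.00202) and by 0.69 (SE 0.109, adjusted p = 0.00283). The other subunits, RPA2 and RPA3, passed in neither arm. RPA3 ran at 24.9, 28.5 and 26.8 FPKM in Control-siRNA, 20.1, 21.8 and 20.5 with mix, 24.2, 18.3 and 26.5 in PHGDH-siRNA and 16.2, 14.3 and 18.6 with mix. Under PHGDH siRNA its groups overlapped, by PHGDH-siRNA replicate 2 and PHGDH-siRNA+Mix replicate 3. RPA3 differed by -0.35 (SE 0.146, adjusted p = 0.185) and -0.46 (SE 0.146, adjusted p = 0.0835), and RPA2 by -0.38 and -0.44. With the replicate block RPA3 and RPA2 were called under PHGDH siRNA (adjusted p = 0.0039 and 0.00308), and in a model of the control siRNA groups alone they were called there (adjusted p = 0.0341 and 0.0212).

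Of 4 genes of nucleotide supply, 3 fell in each arm (medians -0.50 and -0.68). TK1, thymidine kinase, was the second most abundant of the 48 transcripts in Control-siRNA, at 158, 221 and 201 FPKM, with 132, 129 and 121 in Control-siRNA+Mix, 196, 161 and 176 in PHGDH-siRNA and 90.5, 122 and 89.05 in PHGDH-siRNA+Mix. The groups did not overlap in either arm, and TK1 fell by 0.58 (SE 0.165, adjusted p = 0.0491) and by 0.83 (SE 0.165, adjusted p = 0.0108). TYMS, thymidylate synthase, measured 7.68, 10.6 and 9.56 FPKM in Control-siRNA, 6.11, 6.08 and 6.32 with mix, 9.46, 8.82 and 8.86 in PHGDH-siRNA and 4.17, 5.82 and 4.75 with mix. It was lower in every library with mix, and TYMS fell by 0.51 (SE 0.134, adjusted p = 0.0363) and by 0.77 (SE 0.134, adjusted p = 0.00458). TYMS shares 39.1% of its exonic bases with ENOSF1 on the other strand, which was at 0.807 to 1.44 FPKM, and the sources used here do not say if reads were counted by strand. Ribonucleotide reductase makes deoxynucleotides from a large subunit, RRM1, and a small one, RRM2. RRM1 fell by 0.49 and by 0.58. RRM2 was at 16.6, 16.1 and 14.8 FPKM in Control-siRNA, 13.6, 13.4 and 12.9 with mix, 18.04, 11.6 and 18.2 in PHGDH-siRNA and 9.81, 10.6 and 10.97 with mix. The groups did not overlap, but RRM2 differed by only -0.23 (SE 0.153, adjusted p = 0.429) under control siRNA and by -0.54 (SE 0.153, adjusted p = 0.0527) under PHGDH siRNA. The latter was called with the replicate block (adjusted p = 0.0131) and with median-of-ratios scaling (adjusted p = 0.0474).

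Of 5 genes of S phase entry and histone mRNA, 2 fell under control siRNA and 3 under PHGDH siRNA. E2F2 (ENSG00000007968, chromosome 1, 23506430 to 23531220, minus strand), an activating E2F, had the largest change of the 48 genes in both arms. Its libraries held 3.39, 3.96 and 4.65 FPKM in Control-siRNA and 1.09, 1.18 and 1.17 with mix, and 3.40, 3.57 and 2.91 in PHGDH-siRNA and 0.349, 0.842 and 0.773 with mix. The means with mix were 28.6% and 19.9% of those without, 3.49-fold and 5.03-fold lower. On the log2(FPKM + 1) scale, which understates changes at so low a level, E2F2 fell by 1.21 (SE 0.145, adjusted p = 0.000362) and by 1.39 (SE 0.145, adjusted p = 0.000186). E2F1 (ENSG00000101412) was at 16.99, 23.2 and 18.99 FPKM in Control-siRNA, 13.4, 13.02 and 12.2 with mix, 27.3, 18.9 and 22.2 in PHGDH-siRNA and 9.76, 12.6 and 10.4 with mix. Mix was lower in all libraries of each arm, and E2F1 fell by 0.57 (SE 0.157, adjusted p = 0.0449) and by 0.99 (SE 0.157, adjusted p = 0.00283). CCNE1 (ENSG00000105173, chromosome 19, 29811898 to 29824308, plus strand), cyclin E1, which drives entry into S phase, was the only one of the 48 with a higher mean with mix. It measured 4.87, 6.34 and 5.31 FPKM in Control-siRNA and 8.53, 7.92 and 6.88 with mix, without overlap. In PHGDH-siRNA it measured 4.69, 2.78 and 3.95 FPKM and in PHGDH-siRNA+Mix 11.9, 4.13 and 8.02, where replicate 2 was below 1 of the 3 libraries without mix. CCNE1 differed by 0.43 (SE 0.280, adjusted p = 0.427) under control siRNA and 0.83 (SE 0.280, adjusted p = 0.102) under PHGDH siRNA. With PHGDH-siRNA+Mix replicate 2 left out it passed under PHGDH siRNA (1.19, adjusted p = 0.00477), and it passed there with the replicate block (0.83, adjusted p = 0.00368) and under control siRNA in a model of those groups alone (adjusted p = 0.048).

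CCNE2, another E-type cyclin, had the lowest mean of the 48 in every group but PHGDH-siRNA+Mix, where E2F2 was lower. Cyclin E2 was at 0.719, 0.509 and 0.698 FPKM in Control-siRNA, 0.692, 0.606 and 0.442 with mix, 0.398, 1.28 and 0.671 in PHGDH-siRNA and 0.246, 1.62 and 0.332 with mix. Replicate 2 was the highest in both PHGDH siRNA groups and the groups overlapped in both arms. CCNE2 differed by -0.06 (SE 0.266, adjusted p = 0.944) and -0.10 (SE 0.266, adjusted p = 0.876). It shares 37% of its exonic bases with INTS8 on the other strand, which was at 3.49 to 8.68 FPKM. Without strand, reads of the shared bases cannot be told apart. SLBP, which binds the stem-loop of histone mRNAs, was at 43.3, 41.9 and 37.3 FPKM in Control-siRNA, 31.1, 29.7 and 31.6 with mix, 38.2, 41.7 and 40.9 in PHGDH-siRNA and 24.02, 31.3 and 29.2 with mix. Mix was lower without overlap in both arms, by -0.39 (SE 0.119, adjusted p = 0.0653) under control siRNA, which did not pass, and SLBP fell by 0.51 (SE 0.119, adjusted p = 0.0236) under PHGDH siRNA.

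Among 6 factors of chromatin and the checkpoint at the fork, 3 fell under control siRNA and 4 under PHGDH siRNA. CHAF1B, a subunit of the chromatin assembly factor that follows PCNA, was at 6.12, 6.92 and 6.72 FPKM in Control-siRNA, 3.40, 3.68 and 3.18 with mix, 6.22, 7.11 and 6.57 in PHGDH-siRNA and 2.27, 4.48 and 2.76 with mix. All libraries with mix were lower, and CHAF1B fell by 0.78 (SE 0.167, adjusted p = 0.0143) and by 0.91 (SE 0.167, adjusted p = 0.00687). CHAF1A, its partner, fell by 0.63 and by 0.92. UHRF1, which carries DNA methylation through replication, measured 21.6, 26.9 and 27.4 FPKM in Control-siRNA, 18.1, 17.7 and 16.3 with mix, 29.1, 16.2 and 27.3 in PHGDH-siRNA and 13.5, 12.5 and 13.99 with mix. PHGDH-siRNA replicate 2 was as low as the Control-siRNA+Mix libraries. UHRF1 differed by -0.51 (SE 0.192, adjusted p = 0.136) under control siRNA and fell by 0.77 (SE 0.192, adjusted p = 0.0299) under PHGDH siRNA. CLSPN, the checkpoint adaptor claspin, was at 3.75, 1.48 and 2.19 FPKM in Control-siRNA, 1.70, 2.47 and 2.43 with mix, 1.60, 3.49 and 1.95 in PHGDH-siRNA and 1.07, 3.94 and 1.59 with mix. The groups overlapped in both arms, and CLSPN had the widest error of the 48 (-0.08 (SE 0.336, adjusted p = 0.939) and -0.12 (SE 0.336, adjusted p = 0.875)). SSRP1 and SUPT16H form the histone chaperone FACT, and SSRP1 passed where SUPT16H did not, a difference that was not tested. SSRP1 fell by 0.49 (SE 0.112, adjusted p = 0.0189) and by 0.52 (SE 0.112, adjusted p = 0.0156), and SUPT16H, whose groups overlapped, differed by -0.09 (SE 0.165, adjusted p = 0.837) and -0.16 (SE 0.165, adjusted p = 0.64).

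**Figure D4:**
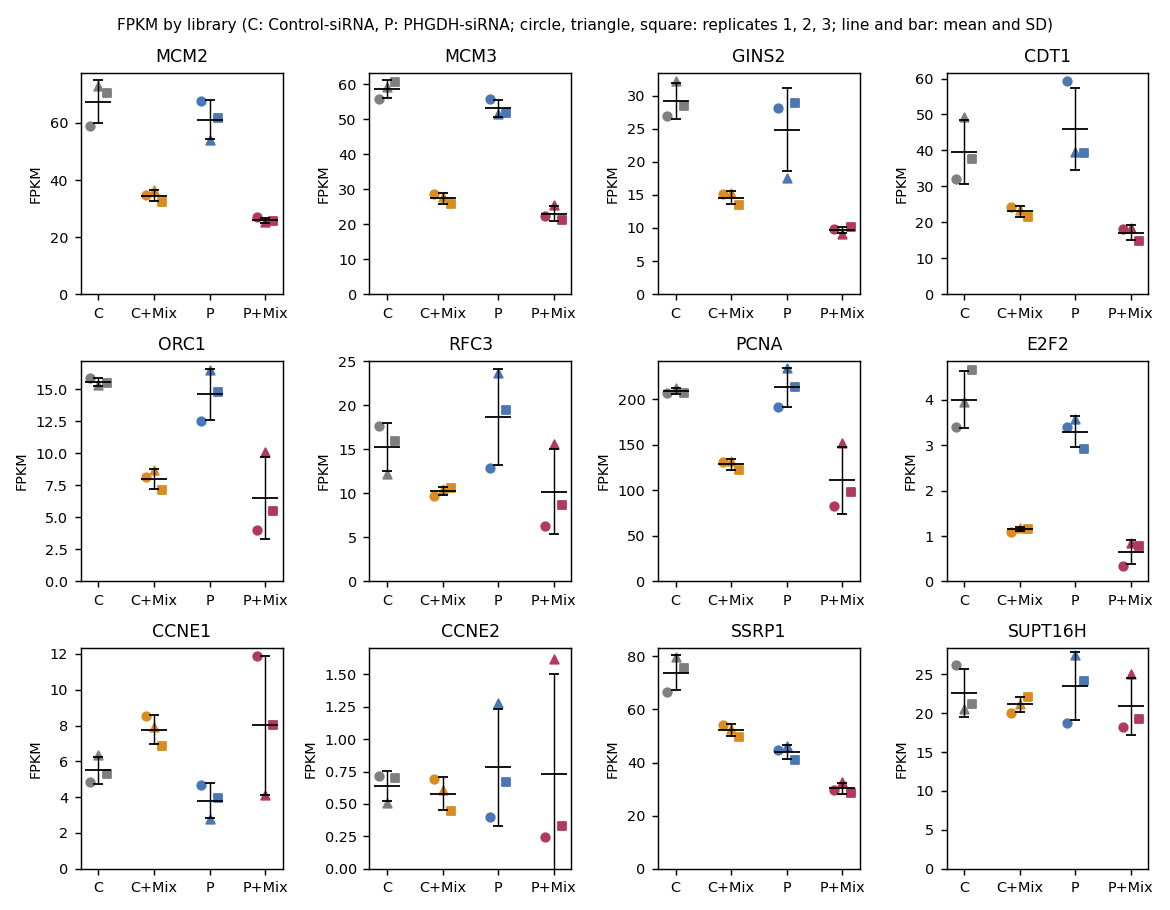
FPKM of 12 genes (y axes, each from 0) in each library of the 4 groups (x axis), with circles, triangles and squares for replicates 1, 2 and 3, a line for the mean and a bar for ±1 SD, cut at 0 for CCNE2. MCM2 and MCM3 fell with mix in both arms with little spread, and GINS2 fell in both with a low triangle in PHGDH-siRNA. The triangle of PHGDH-siRNA+Mix stood highest of its group for all 12 genes but MCM2, GINS2 and CCNE1. CCNE1 had higher means with mix, and the 4 groups of SSRP1 did not overlap.

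Genes with and without an E2F core in the promoter window were set side by side, as counts without a test. Under control siRNA, 20 of 29 genes with a core fell (median -0.68) and 5 of 13 without one (median -0.46). Under PHGDH siRNA, 23 of 29 with a core fell (median -0.88) and 9 of 13 without one (median -0.68). MCM2, CDC45, POLD1, RFC5 and SSRP1 had no core in their windows and fell in both arms. CLSPN, GINS3, POLA1, POLE2, RFC3 and RRM2 had one and were called in neither.

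Other genes of the pathway were counted from lists for comparison, without a test between lists. Among all genes tested, 3.92% fell and 5.62% rose under control siRNA, and 3.64% fell and 5.22% rose under PHGDH siRNA. Of 48 other replication and S phase genes tested, 9 changed under control siRNA, 8 down and 1 up (median -0.34), and 15 under PHGDH siRNA, 14 down and 1 up (median -0.44). TIMELESS, of the fork protection complex, went from 21.6 ± 0.929 to 12.3 ± 0.591 FPKM (SD, n = 3) and fell by 0.77 (SE 0.120, adjusted p = 0.00218), and under PHGDH siRNA fell by 0.91 (SE 0.120, adjusted p = 0.000893). The histone chaperones ASF1B and NASP fell by 0.83 and 0.66 under control siRNA and by 1.05 and 0.70 under PHGDH siRNA, and DNMT1, the maintenance DNA methyltransferase, by 0.57 and 0.70. POLD4, a small subunit of polymerase delta named here after its values were seen, was the 1 that rose, from 4.49 ± 1.38 to 8.37 ± 0.0788 FPKM under control siRNA (0.80, adjusted p = 0.0118) and by 0.67 under PHGDH siRNA (adjusted p = 0.0294).

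Of 29 RB, E2F and G1/S regulators tested, 6 fell and 1 rose under control siRNA (median -0.14), and 4 fell and 1 rose under PHGDH siRNA (median -0.21). CDKN1A, the cyclin-dependent kinase inhibitor p21, was the one that rose. It was at 44.7, 58.3 and 56.1 FPKM in Control-siRNA, 179, 172 and 170.5 with mix, 96.2, 46.9 and 73.7 in PHGDH-siRNA and 336, 167 and 253 with mix. CDKN1A rose by 1.71 (SE 0.279, adjusted p = 0.00303) under control siRNA and rose by 1.79 (SE 0.279, adjusted p = 0.00265) under PHGDH siRNA. TFDP1, the partner with which E2Fs bind DNA, fell by 0.50 and 0.53. E2F8, a repressive E2F, fell by 0.68 (SE 0.154, adjusted p = 0.0187) under control siRNA and differed by -0.51 (SE 0.154, adjusted p = 0.0694) under PHGDH siRNA. CDKN2A, whose locus encodes an inhibitor of CDK4 and CDK6, fell by 0.77 (SE 0.197, adjusted p = 0.0327) and by 0.85 (SE 0.197, adjusted p = 0.0229).

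Mitotic genes were counted in the same way. Of 34 mitosis and G2/M genes tested, 12 fell and none rose under control siRNA (median -0.47), and 17 fell and none rose under PHGDH siRNA (median -0.67), with all 34 lower in both arms. FOXM1, a transcription factor of G2/M genes, went from 46.3 ± 0.218 to 26.2 ± 0.516 FPKM under control siRNA and from 41.2 ± 7.85 to 19.6 ± 2.85 FPKM under PHGDH siRNA. FOXM1 fell by 0.80 (SE 0.144, adjusted p = 0.00541) and by 1.03 (SE 0.144, adjusted p = 0.00133). CCNB1, cyclin B1, fell by 0.72 and 0.82, KIF2C, a mitotic kinesin, by 0.82 and 1.00, and CCNF, cyclin F, by 0.68 and 0.83. The lists were chosen with earlier results of these data known, so these counts are descriptions.

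Whether PHGDH siRNA changed the response to mix was tested as an interaction, the difference between the changes with mix in the PHGDH and control siRNA arms. None of the 48 genes and none of all genes passed limma (0%) or the voom alternative. At an unadjusted p under 0.05 there were 250 of all genes and 1 of the 48, CDT1, whose interaction was -0.62 (SE 0.272, unadjusted p = 0.0429, adjusted p = 1). The sign was negative for 44 of 48, with a median of -0.19 against -0.004 over all genes, and from -0.62 for CDT1 to 0.40 for CCNE1. Only 29 of the 48 genes kept 1 sign of the interaction over all alternatives run. After CDT1, the lowest p-values were those of FEN1 (-0.43, SE 0.209) and CDC45 (-0.36, SE 0.179). Without PHGDH-siRNA+Mix replicate 2 the median was -0.31, and without the replicate 2 libraries of both PHGDH siRNA groups, a choice made after seeing the data, -0.33. No gene of the 48 passed then either.

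The comparisons of PHGDH siRNA with control siRNA asked whether the siRNA itself moved these transcripts, first without mix. None of the 48 passed limma, where 0.0274% of all genes fell, and 2 had an unadjusted p under 0.05, RRM1 and SSRP1, as did 935 of all 14577 genes. Lower means were found for 33 of 48, with a median of -0.07 against 0.007 over all genes. Only 24 of the 48 kept 1 sign over all alternatives run. Only CCNE1 and SSRP1 were lower without overlap, against 5.3% of all genes. With mix, none passed either, where 0.00686% of all genes fell, and 17 had an unadjusted p under 0.05, all lower, where 834 of all 14577 genes did, 407 of them lower. Lower means were found for 44 of 48, with a median of -0.30 against -0.001, and 35 of the 48 kept 1 sign over all alternatives. Without overlap, 22 of 48 were lower, against 7.33% of all genes. By role, the 22 included 9 of 12 helicase genes, 3 of 4 licensing factors, 3 of 4 genes of nucleotide supply and 1 of 7 polymerase and primase genes. After SSRP1, the lowest p-values with mix were those of MCM4 (-0.43 (SE 0.122, adjusted p = 0.499)), CDC45 (-0.42 (SE 0.126, adjusted p = 0.586)), MCM2 (-0.40 (SE 0.123, adjusted p = 0.636)) and GINS2 (-0.54 (SE 0.169, adjusted p = 0.641)). MCM4 was at 73.9% and GINS2 at 66.5% of the Control-siRNA+Mix mean. The comparisons with mix and of mix under PHGDH siRNA share the PHGDH-siRNA+Mix libraries. Without replicate 2 of that group the median with mix was -0.39, and still none of the 48 passed. The mitotic genes had a median of -0.32 in the same comparison, the other replication genes -0.08 and the RB, E2F and G1/S regulators 0.06.

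**Figure D5:**
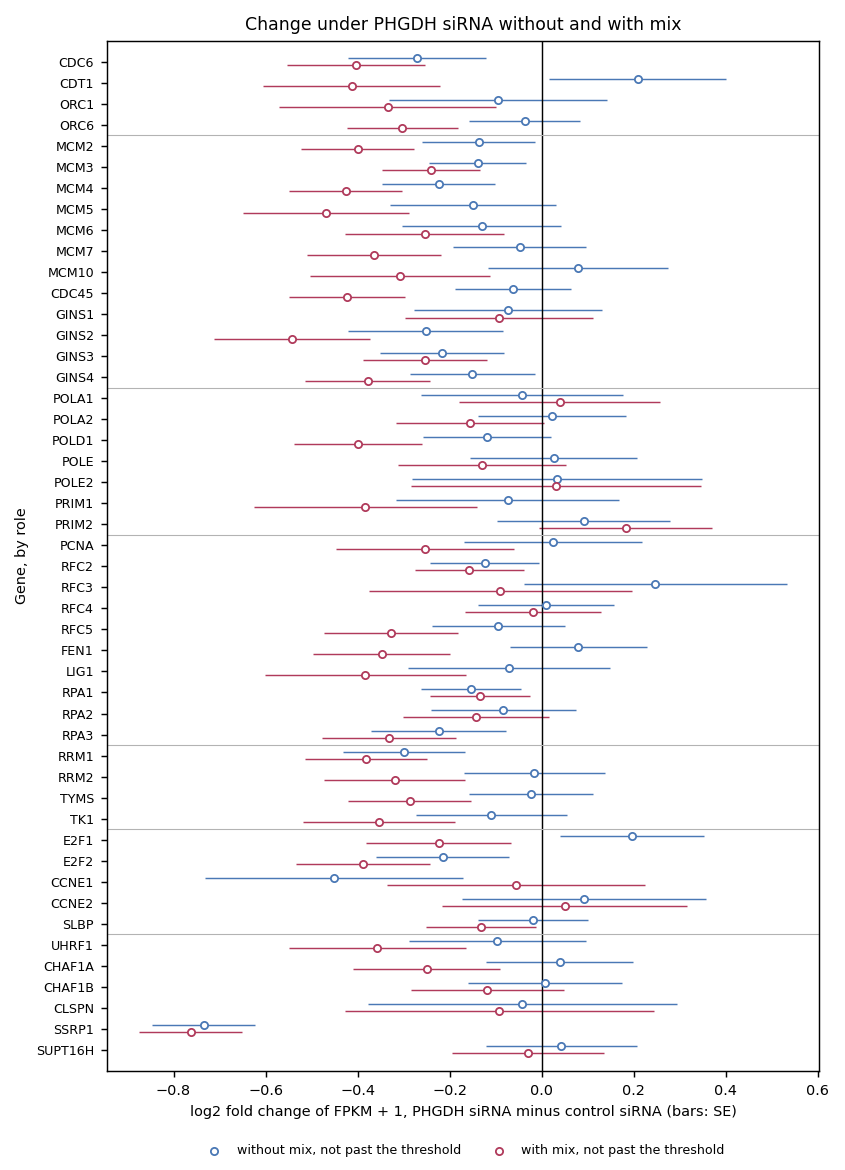
Log2 fold change of FPKM + 1 under PHGDH siRNA against control siRNA (x axis, bars are SE) for each gene (y axis, by role), without mix in blue and with mix in red; open points did not pass the threshold. Without mix most points lie near 0 (median -0.07), with mix most lie left of it (median -0.30), and SSRP1 is farthest left in both, at -0.73 and -0.76.

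SSRP1 (ENSG00000149136, chromosome 11, 57325985 to 57335877, minus strand) was the 1 gene of the 48 that fell under PHGDH siRNA when both mix conditions were averaged, where 0.233% of all genes fell. At an unadjusted p under 0.05 there were 14 of the 48, all lower, and 1627 of all 14577 genes, 803 of them lower. SSRP1 measured 66.5, 79.6 and 75.5 FPKM in Control-siRNA and 44.6, 46.3 and 40.9 in PHGDH-siRNA. With mix it measured 54.1, 52.8 and 49.6 FPKM in Control-siRNA+Mix and 29.8, 32.6 and 28.7 in PHGDH-siRNA+Mix. The 4 groups did not overlap, the mean without mix was 59.5% of the control mean and that with mix 58.2%. Averaged, SSRP1 fell by 0.75 (SE 0.0791, adjusted p = 0.00608) on the log2 scale, with -0.73 (SE 0.112, adjusted p = 0.0768) without mix and -0.76 (SE 0.112, adjusted p = 0.0745) with it. The averaged call was lost without Control-siRNA+Mix replicate 2 (adjusted p = 0.0514). Without the replicate 2 libraries of both PHGDH siRNA groups SSRP1 passed in each condition (-0.77, adjusted p = 0.0187 without mix and -0.81, adjusted p = 0.0272 with it), as it did with voom (adjusted p = 0.0492 and 0.0367). A model of the compared groups alone did not call it (adjusted p = 0.611 and 0.456). SUPT16H, the partner of SSRP1 in FACT, was at 26.2, 20.5 and 21.2 FPKM in Control-siRNA, 20.1, 21.2 and 22.1 in Control-siRNA+Mix, 18.8, 27.5 and 24.1 in PHGDH-siRNA and 18.2, 25.1 and 19.3 in PHGDH-siRNA+Mix. All 4 groups overlapped, and the averaged change was 0.01 (SE 0.116, adjusted p = 0.988). Without the replicate 2 libraries, ORC1 and RFC5 were called beside SSRP1 in the averaged comparison (adjusted p = 0.0468 and 0.0292), against adjusted p-values of 0.687 and 0.489 with all libraries.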

How the data were processed

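Per the labels, RNAiso Plus was used for extraction and the NEBNext Ultra RNA kit for the libraries. Tools listed in the submitters' processing notes, with no role, are featureCounts 1.5.0-p3, HISAT2 2.0.5 and CASAVA, and the build is hg38. The authors deposited 1 table of FPKM for 58735 genes in 12 libraries, with no log transformation. FPKM multiplied by gene length gave whole reads (100% of values up to 200 reads within 0.05 of a whole number), 16403845 to 20901128 per library.

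Genes that reached a group mean of 0.5 FPKM (14577) entered limma 3.58.1 (R 4.3.3, trend and robust options) on log2(FPKM + 1), with 1 mean per group over all 12 libraries and 8 residual degrees of freedom. Tests were two-sided, with Benjamini-Hochberg adjustment over all genes tested and a threshold of 0.05. A count test had been planned only for a table of counts. The scale understates changes of low genes. With 3 libraries against 3, an exact permutation test has a smallest p of 0.1. The voom alternative used the recovered reads.

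Libraries with the same replicate number deviated together in 5 of 18 pairs of groups and numbers (correlation over 0.1), among them all 3 between the PHGDH siRNA groups (0.69, 0.775 and 0.459), so the block is given for these groups. Over the 18 pairs the correlations ran from -0.387 to 0.775, the lowest between Control-siRNA and PHGDH-siRNA at replicate 1.

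Every gene of the set is accounted for. Values per library are given for a fixed panel of 26 genes and for up to 12 genes per comparison past the threshold, by adjusted p. Genes of other lists are named when past the threshold, up to 4 per list by adjusted p under control siRNA. The genes, lists and comparisons were chosen with earlier results of these data known. Motifs were searched on both strands of RefSeq promoter windows. Exon overlaps were taken from GENCODE 29, and 13 of the 48 genes share 5% or more of their exonic bases with another gene.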

Additional observations from a re-analysis of the deposited data

How the results depend on the processing

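No median change over the 48 genes reversed its sign in an alternative. The counts of calls, among the 48 and all genes, and these medians stayed within a tolerance of the main fit in 219 comparisons. They moved beyond it in 66. For counts the tolerance was a fixed ratio, so counts within it could still differ. For medians it was a shift of less than 0.1 (log2), the SD of the median between replicates. Of the calls with mix, 10 of 28 under control siRNA and 9 of 35 under PHGDH siRNA held under every alternative run: MCM2, MCM3, MCM4, MCM7, GINS2, RFC2 and E2F2 in both arms, MCM6, RFC5 and RPA1 under control siRNA, and CDT1 and POLD1 under PHGDH siRNA. Leaving out 1 library reduces the residual degrees of freedom, and a group left with 2 libraries borrows the spread of the others.

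With 1 library left out, 10 to 25 of the 48 genes and 658 to 1223 of all genes were called with mix under control siRNA (28 and 1391 with all libraries), and 24 to 38 and 665 to 1644 under PHGDH siRNA (35 and 1291), with medians of the 48 genes of -0.98 to -0.76. The interaction median ranged from -0.31 to -0.10. For PHGDH siRNA without mix 0 to 4 of all genes were called (6 with all libraries), with mix 0 to 6 (3), and averaged 0 to 1 of the 48 and 2 to 96 of all genes (1 and 71).

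Without the filter on low values, 14 of the 48 genes and 939 of all genes were called with mix under control siRNA, and 27 and 761 under PHGDH siRNA. The same setting gave 1, 5 and 14 of all genes for PHGDH siRNA without mix, with mix and averaged, and 5 for the interaction. With a pseudocount of 0.1, PHGDH siRNA with mix gave 1. Models of the compared groups alone called 40 of the 48 and 2690 of all genes with mix under control siRNA, 9 of the 48 and 254 of all genes under PHGDH siRNA, and 0 of all genes for PHGDH siRNA in either condition. With voom the medians with mix were -0.70 and -1.002, on a scale without the added 1 FPKM, and SSRP1 was the 1 gene of the 48 called under PHGDH siRNA in each condition, beside 5 of all genes with mix.

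With the replicate number as a block in all groups, 25 and 34 of the 48 genes were called with mix under control and PHGDH siRNA, and PHGDH siRNA gave 0 of all genes in either condition and 39 averaged. With the replicate block in the PHGDH siRNA groups only, 3284 of all genes were called with mix, and no other call of the 48 genes changed than those given above. Without the replicate 2 libraries of both PHGDH siRNA groups, chosen after seeing the data like that block, the medians were -1.02 with mix under PHGDH siRNA and -0.33 for the interaction. That setting called 2190 of all genes with mix, 1 of the 48 in each siRNA comparison, 3 of the 48 averaged, and 101, 55 and 492 of all genes for PHGDH siRNA without mix, with mix and averaged. The cause of these shifts was not tested. Scaling by the median of ratios moved the median of all genes by at most 0.003. With it, LIG1 was no longer called with mix under control siRNA (adjusted p = 0.0516). ORC6 was called there (adjusted p = 0.0483), and RRM2 under PHGDH siRNA (adjusted p = 0.0474).

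Depth limits CCNE2 most, with 21 reads in 1 library, and E2F2, with 37.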
